A study of Mus musculus with 12 samples.

Results

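Mitochondrial ribosomal protein genes encode the protein part of the mitochondrial ribosome (mitoribosome), and 76 of the 23420 genes in the count table of mouse inguinal white adipose tissue (iWAT) belong to this family. They were taken by symbol, as Mrpl or Mrps followed by a digit, and no row had to be left out for a pseudogene or opposite-strand ending. Of the 76 genes, 49 encode large subunit proteins and 26 small subunit proteins, with Mrps18a and Mrps30 counted as large. Mrps36 stands apart, because its product is now known as a subunit of the α-ketoglutarate dehydrogenase complex.

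The tissue came from male C57BL/6 mice aged 10 weeks, all homozygous for a loxP-flanked Hif2a (Epas1) allele. WT mice had no Cre, and HIF2α AKO mice carried Adipoq-Cre, which is active in adipocytes and leaves the other cells of the depot intact. Each genotype was kept at thermoneutrality (TN, 30 °C) for 1 week or in cold (4–6 °C) for 3 days, so that 3 libraries each stood for WT and HIF2α AKO at TN and for WT and HIF2α AKO in cold. The comparisons ask how the family responded to cold in each genotype, and whether it differed between genotypes at either temperature.

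The mitoribosome translates the few proteins encoded by mitochondrial DNA, all of them subunits of the respiratory chain and ATP synthase. Its ribosomal RNAs are made inside the organelle, while every one of its proteins is encoded in the nucleus, made in the cytosol and imported. The large subunit forms peptide bonds and holds the exit tunnel, the small subunit reads the mRNA, and many of their proteins have no bacterial counterpart. In cold, white adipose depots such as iWAT gain beige adipocytes, which are rich in mitochondria and burn fuel through UCP1.

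Libraries held 22368316 to 35204631 counts in genes. Epas1, the targeted gene, stood at 373, 278 and 430 CPM (counts scaled to a common library size) in TN WT and at 289, 394 and 360 in TN HIF2α AKO. In cold it stood at 576, 562 and 743 CPM in WT and at 986, 743 and 748 in HIF2α AKO. No loss of its transcript was thus seen in these counts under the HIF2α AKO label, and genotypes are given as labelled. The study itself reported reduced Hif2a mRNA in HIF2α AKO iWAT, measured by RT-qPCR. Why the measures differ was not tested. The 12 skeletal muscle markers summed to 1590 CPM in TN HIF2α AKO replicate 2 and to 1299 in cold HIF2α AKO replicate 1, against 12.2 to 95.4 in the other libraries, where Myh4, Ckm and Pvalb were at 0 in some cold WT library and Myh7 in a cold HIF2α AKO library. The 6 epithelial markers summed to 200 CPM in TN WT replicate 3 and to 2.95 to 10.3 elsewhere, with keratins such as Krt5 at 0 in some libraries. Adipocyte markers were high in every library (8 of 8 above 0, summing to 11460 to 42860 CPM). Nothing in the labels says that each library came from a separate mouse, so p-values measure the spread between these samples.

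All 76 genes were well covered, with mean counts between 330.9 and 2883 and a lowest count of 187 in any library, so that each of them passed the filter on low counts. CPM are TMM-scaled, which adjusts for differences in library size and composition but need not remove them. The TMM factors were 0.83 to 0.99 in cold libraries and 1.02 to 1.20 in TN libraries. By library size alone, the median log2 fold change of the 76 genes, cold WT against TN WT, was 0.45 in place of 0.75. Summed over the family, TN WT libraries held 1966, 1732 and 2343 CPM and cold WT libraries 3264, 3320 and 4060 CPM. TN HIF2α AKO libraries held 1851, 2320 and 2092 CPM and cold HIF2α AKO libraries 4543, 3641 and 3698 CPM. Every cold library lay above every TN library, and in whole tissue more cells of a type and more RNA per cell cannot be told apart.

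**Figure D1:**
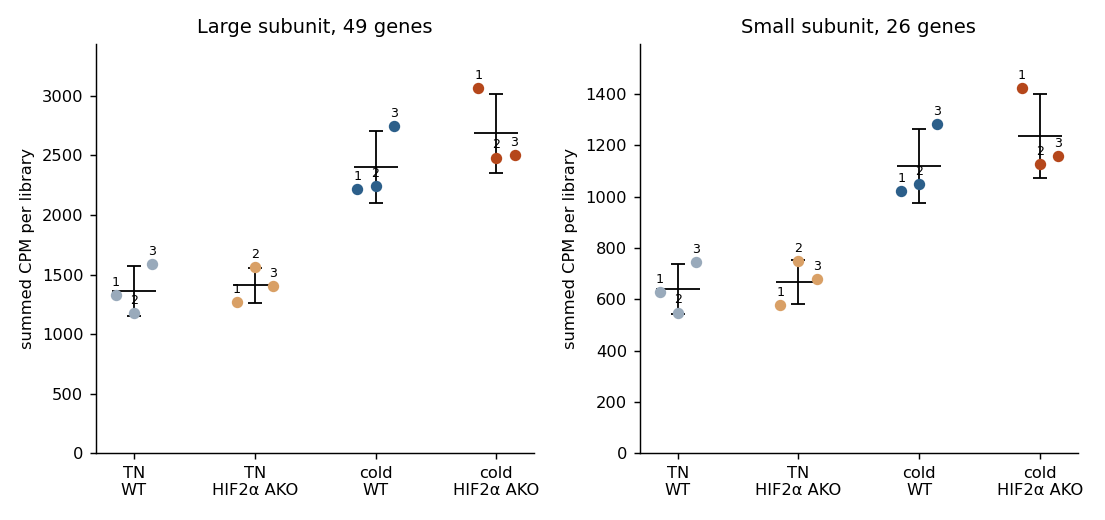
Summed CPM of the 49 large subunit genes (left) and 26 small subunit genes (right) in each library, with the replicate number beside each point. Horizontal bars are means and error bars SD of 3 libraries, and all cold libraries lie above all TN libraries (large subunit, 2220 to 3065 against 1175 to 1589 CPM).

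Upon cold, the mitochondrial ribosomal protein genes of WT iWAT rose as a family. With edgeR's quasi-likelihood test and Benjamini-Hochberg adjustment over the 15306 genes tested, 68 of 76 passed an adjusted p of 0.05 as higher and 0 as lower, while 15.6% of all genes tested were called higher. All 76 estimates were positive. Their median was 0.75 on the log2 scale (1.69-fold) and their range 0.04 to 1.74, beside a median of -0.03 over all genes. In 71 members the 3 cold libraries lay above the 3 TN libraries, as they did in 22.7% of all genes.

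Both subunits were represented. Of the large subunit genes 44 of 49 were called higher, with a median of 0.71, and of the small subunit genes 23 of 26, with a median of 0.76. Summed per exon length (RPKM), the large subunit stood at 2.19 to 2.37 times the small subunit in all 12 libraries and at either temperature. The difference between subunits was not tested.

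Mrps36 had the largest rise. Its level was 7.49, 7.88 and 10.0 CPM in TN WT and 23.2, 32.0 and 29.3 CPM in cold WT. The groups lie far apart, with a log2 fold change of 1.74 (SE 0.22, 3.33-fold, adjusted p = 0.000909, edgeR). The gene lies at chr13:100735955-100744659 on the minus strand (GRCm38, GENCODE M21), overlaps no other gene, and has 4 near-identical pseudogenes, so its count is uncertain where reads fit several copies.

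Mrpl12, the stalk protein that recruits translation factors to the large subunit, followed. It stood at 52.6, 45.1 and 75.5 CPM in TN WT and at 144, 147 and 178 CPM in cold WT. The estimate was 1.44 on the log2 scale (SE 0.24, adjusted p = 0.00314, edgeR). Even the highest TN library was far below the lowest cold library. The gene (chr11:120484613-120489065, plus strand) overlaps the opposite-strand gene Gm16755.

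Mrps2, which binds the small subunit's RNA as its bacterial homologue does, stood at 27.6, 26.2 and 30.3 CPM in TN WT. In cold WT it stood at 62.5, 67.2 and 97.0 CPM, and cold WT replicate 3 was well above the other two (log2 fold change 1.43, SE 0.18, adjusted p = 0.000768, edgeR). Mrpl20, a homologue of a bacterial protein of large subunit assembly, stood at 29.4, 26.7 and 35.8 CPM in TN WT and at 68.8, 73.9 and 92.8 CPM in cold WT (1.36, SE 0.19). Neither gene has an overlapping gene or a near-identical pseudogene in the annotation. Their values are therefore free of the doubt that copies bring to Mrps36.

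The next members by rise were Mrpl51 (1.22), Mrpl34 (1.19), Mrpl42 (1.17), Mrpl53 (1.10), Mrpl47 (1.09) and Mrps18b (1.07), each with groups that did not overlap and an adjusted p of at most 0.00693 (edgeR). Mrpl42 and Mrpl51 are found in mitochondria and not in bacteria, whereas Mrpl34 and Mrpl47 have bacterial homologues, so both origins were among the largest rises.

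**Figure D2:**
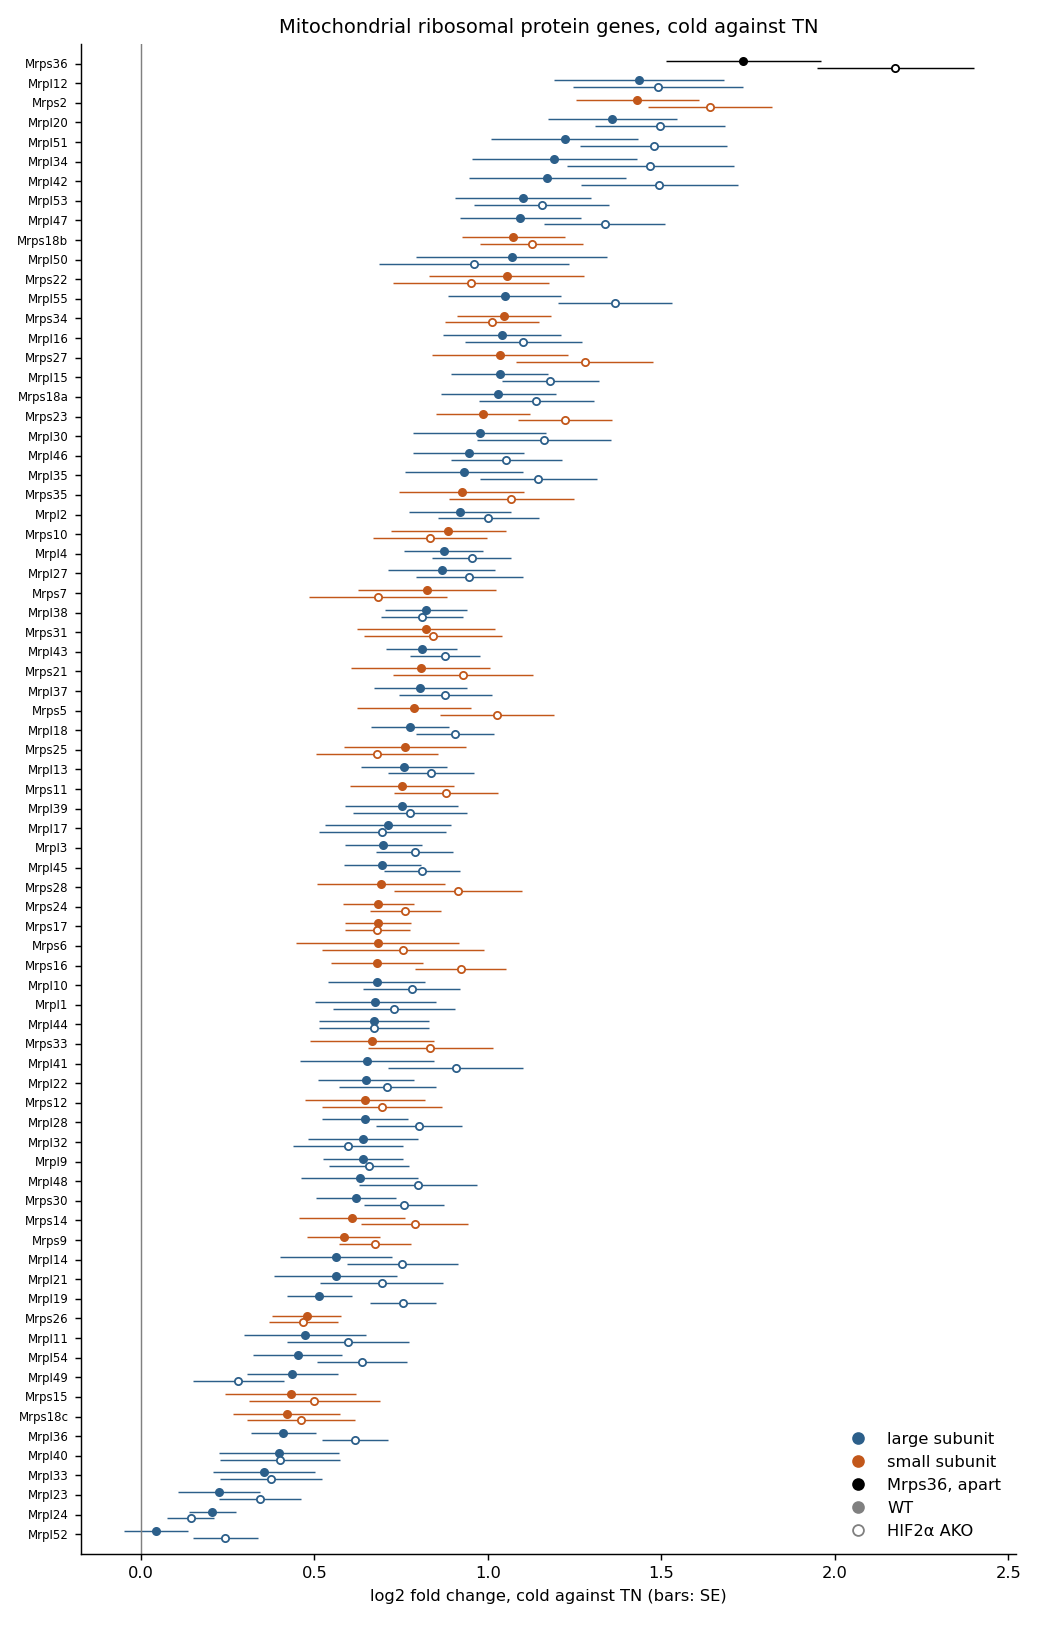
Log2 fold change of cold against TN for the 76 genes, ordered by the rise in WT, with filled points for WT, open points for HIF2α AKO and bars for the SE of each estimate (3 libraries a group). All points lie above 0, from Mrpl52 (0.04 in WT) to Mrps36 (1.74 in WT and 2.17 in HIF2α AKO).

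Promoters of some of the members with the largest rises are shown because the family moved together while sitting on 17 chromosomes. RefSeq promoters (GRCm38.p6, 250 bases before to 50 after the transcript start) were matched for 67 of the 76 members and for 16375 genes of the table, with the first listed start where a gene had several. Printed are the members named for their rise in WT, in order of that rise, that hold a match to NRF1 (GCGCANGCG), GABP/ETS (CCGGAAGT), ERR (CAAGGTCA) or YY1 (AAGATGGCG), the motifs of factors known to act on nuclear genes for mitochondrial proteins. They run 5′ to 3′ along the gene, and capitals mark the match on either strand. Mrps36, Mrps2, Mrpl20, Mrpl34, Mrpl53 and Mrpl47, also named for their rise in WT, held no match to any of these motifs and are left out.
Mrpl12 promoter, chr11:120484387-120484686, plus strand: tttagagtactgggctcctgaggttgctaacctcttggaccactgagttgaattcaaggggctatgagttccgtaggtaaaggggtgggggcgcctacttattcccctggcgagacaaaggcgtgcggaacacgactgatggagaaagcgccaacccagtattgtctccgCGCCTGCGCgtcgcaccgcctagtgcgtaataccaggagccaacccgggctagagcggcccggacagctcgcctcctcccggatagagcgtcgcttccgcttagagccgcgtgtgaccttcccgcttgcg
Mrpl51 promoter, chr6:125191950-125192249, plus strand: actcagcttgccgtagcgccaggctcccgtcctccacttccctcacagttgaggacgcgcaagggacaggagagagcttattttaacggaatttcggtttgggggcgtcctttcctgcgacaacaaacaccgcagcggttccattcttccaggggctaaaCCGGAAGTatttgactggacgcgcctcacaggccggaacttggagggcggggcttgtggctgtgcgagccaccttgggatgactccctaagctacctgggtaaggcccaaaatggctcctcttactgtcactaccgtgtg
Mrpl42 promoter, chr10:95501900-95502199, minus strand: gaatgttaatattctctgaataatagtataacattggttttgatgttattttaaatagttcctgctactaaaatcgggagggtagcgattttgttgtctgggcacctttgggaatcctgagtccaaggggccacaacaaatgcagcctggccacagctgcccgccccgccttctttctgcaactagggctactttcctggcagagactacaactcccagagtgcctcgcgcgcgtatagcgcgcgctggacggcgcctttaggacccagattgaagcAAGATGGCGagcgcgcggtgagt
Mrps18b promoter, chr17:35916391-35916690, minus strand: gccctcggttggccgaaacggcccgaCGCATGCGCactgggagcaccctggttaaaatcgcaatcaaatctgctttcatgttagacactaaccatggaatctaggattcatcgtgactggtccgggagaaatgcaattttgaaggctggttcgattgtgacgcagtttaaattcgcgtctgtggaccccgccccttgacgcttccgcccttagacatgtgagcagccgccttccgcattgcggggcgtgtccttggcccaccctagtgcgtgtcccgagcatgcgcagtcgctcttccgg
The capitals mark NRF1 in Mrpl12 and Mrps18b, GABP/ETS in Mrpl51 and YY1 in Mrpl42, where the match lies 27 bases downstream of the start.

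Over both strands, NRF1 was matched in 15 of 67 members (22.4%) and in 8.96% of all promoters, GABP/ETS in 11 (16.4% and 5.33%), YY1 in 8 (11.9% and 2.01%) and ERR in 2 (2.99% and 1.23%). At least 1 of these 4 was present in 33 members (49.3%) and in 16.1% of all promoters. The core of the HIF binding site (NCGTG) was matched in 80.6% of members and 67.7% of all promoters, and SP1 (GGGCGG) in 49.3% and 47.3%; an NCGTG match may lie inside another motif. The median log2 fold change in WT was 0.68 with NRF1 and 0.77 without, 0.78 and 0.70 for GABP/ETS, 0.87 and 0.70 for YY1, and 0.71 and 0.76 for the HIF core. These are letters in a window and say nothing of binding.

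Members at the other end hardly moved. Mrpl52, a large subunit protein without a bacterial counterpart, stood at 28.2, 25.9 and 30.6 CPM in TN WT and at 29.9, 29.9 and 27.5 CPM in cold WT, with overlapping groups (log2 fold change 0.04, SE 0.09). Mrpl24 and Mrpl23, which sit near the mouth of the exit tunnel, had log2 fold changes of 0.21 (SE 0.07, adjusted p = 0.0494, edgeR) and 0.23 (SE 0.12, adjusted p = 0.177). Scaled by library size alone, which shifts the median of all genes in this comparison to -0.33, these 3 genes had negative estimates. Mrpl24 kept a narrow range throughout, at 40.1 to 43.4 CPM in the TN libraries and 44.5 to 49.8 CPM in the cold libraries.

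By role, members of the same part of the ribosome differed in their estimates. Of the 5 stalk genes, Mrpl12 and Mrpl53 rose by 1.44 and 1.10 on the log2 scale, Mrpl10 by 0.68 and Mrpl54 by 0.45 (each called), and Mrpl11 did not pass (0.47, adjusted p = 0.0757, edgeR). Of the tunnel exit genes 5 of 6 were called higher (median 0.67, from 0.21 for Mrpl24 to 1.09 for Mrpl47). Of the genes of the large subunit's central protuberance 6 of 7 were called higher (median 0.82). The 3 paralogues of bacterial S18 were uneven as well. Mrps18b rose by 1.07 and Mrps18a by 1.03, while Mrps18c stood at 0.42 (SE 0.15, adjusted p = 0.0733).

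Proteins with a bacterial homologue and mitochondria-specific proteins were both represented. In the large subunit 27 of 30 homologues (median 0.71) and 17 of 19 mitochondria-specific genes (median 0.75) were called higher in cold WT. In the small subunit 13 of 16 homologues (median 0.68) and 10 of 10 mitochondria-specific genes (median 0.96) were. The lists were chosen with earlier results known, and the difference between lists was not tested.

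Levels per exon length differed widely within the family although its proteins are built into one particle. In TN WT the mean RPKM ran from 2.20 (Mrpl47) to 59.5 (Mrps21, a small subunit protein), with a median of 17.0. In cold WT it ran from 4.70 (Mrpl47) to 132 (Mrpl42), with a median of 29.4. The ratio of the upper to the lower quartile was 2.88 in TN WT and 2.92 in cold WT, a similar spread among members at both temperatures. The highest mean RPKM over all libraries belonged to Mrpl42, Mrpl12 and Mrps21, and the lowest to Mrpl47, Mrpl1 and Mrps25. RPKM depends on the exon length taken from the annotation, and Mrpl47 overlaps Actl6a and Ndufb5 on the opposite strand. Across the 76 genes, the level in TN HIF2α AKO, whose libraries are not part of the WT comparison, and the rise in WT had a Pearson correlation of 0.0266.

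**Figure D3:**
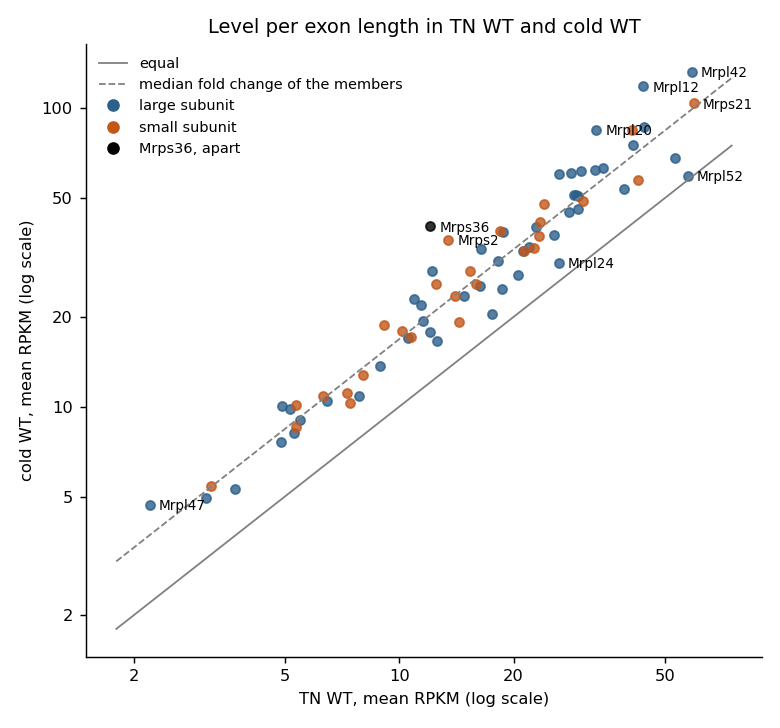
Mean RPKM of the 76 genes in TN WT (x axis) and cold WT (y axis), both on log scales, 3 libraries a group. The points run along the dashed line of the median fold change (1.69-fold) from Mrpl47 (2.20 and 4.70) to Mrpl42 (58.9 and 132), with Mrps36 above it and Mrpl52 on the line of equal levels.

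In HIF2α AKO iWAT the family also rose upon cold. Of the 76 members 69 were called higher and 0 lower, beside 15.6% of all genes called higher. The median was 0.83 on the log2 scale (1.78-fold), within a range of 0.14 to 2.17, and the median of all genes was -0.05. The cold libraries lay above the TN libraries for 76 members, and for 24.9% of all genes. Of the large subunit 43 of 49 were called (median 0.81) and of the small subunit 25 of 26 (median 0.84).

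Mrps36 again led, at 7.29, 11.0 and 9.26 CPM in TN HIF2α AKO and 55.1, 34.5 and 34.9 CPM in cold HIF2α AKO (2.17, SE 0.23, adjusted p = 0.000225, edgeR). Cold HIF2α AKO replicate 1 stood well above the other two, and without it the log2 fold change was 1.92. Mrps2 (1.64), Mrpl20, Mrpl42 (1.49), Mrpl12 (1.49), Mrpl51 (1.48), Mrpl34 (1.47), Mrpl55 (1.37), Mrpl47 (1.34) and Mrps27 (1.28) followed. Mrpl55 belongs to the central protuberance and Mrps27 is an RNA-binding protein of the small subunit.

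The order of the rises was much alike in both genotypes, which share no library. Across the 76 genes the rise in WT and the rise in HIF2α AKO had a Pearson correlation of 0.948, and across all 15306 genes of 0.826; both rest on the same gene annotation and scaling. Called in both were 66 members, in WT alone Mrpl24 and Mrpl49, and in HIF2α AKO alone Mrpl11, Mrps18c and Mrps6. Not called in either were Mrpl23, Mrpl33, Mrpl40, Mrpl52 and Mrps15, with log2 fold changes of 0.04 to 0.43 in WT and 0.24 to 0.50 in HIF2α AKO. Of the calls in 1 genotype, that of Mrpl24 was lost on leaving out any 1 of the 12 libraries, those of Mrpl49 and Mrps18c with 7 of them and that of Mrpl11 with 4. A pass in 1 genotype alone is not a difference between genotypes, and no interaction passed the test.

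**Figure D4:**
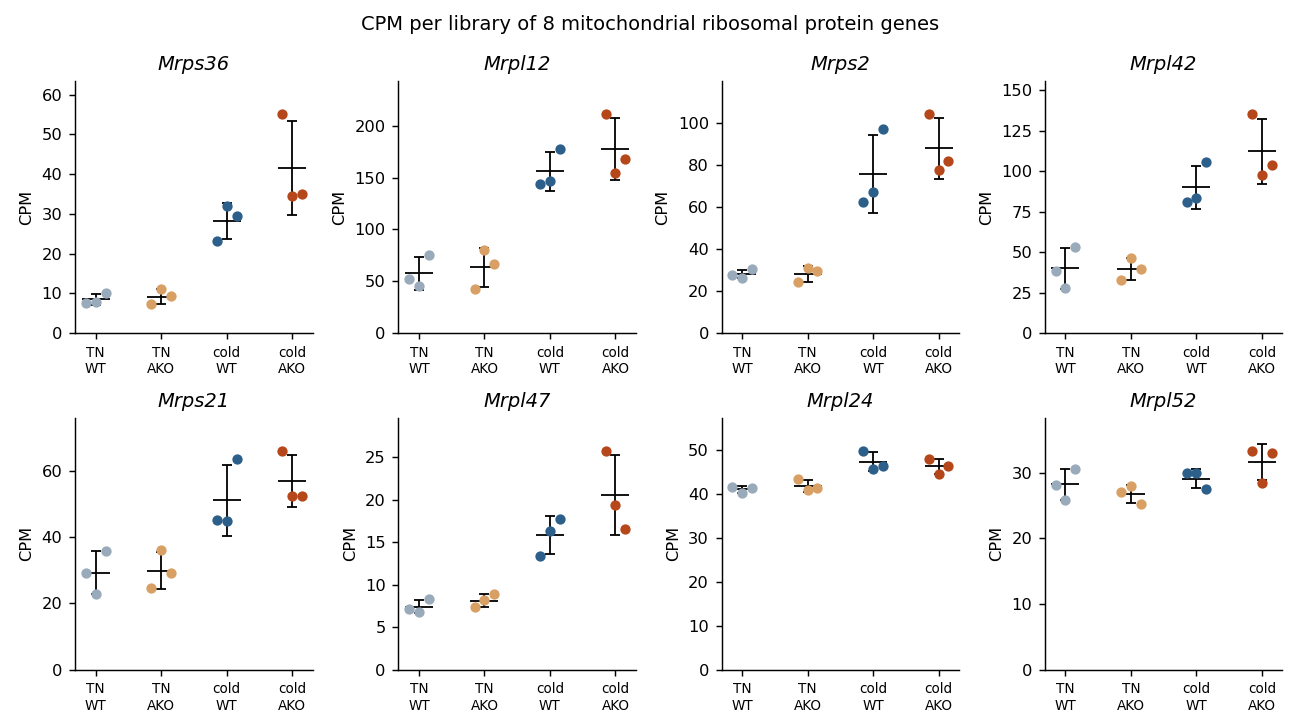
CPM in each library of 8 members named for their rise, level or lack of change, with means (horizontal bars) and SD (3 libraries a group); AKO stands for HIF2α AKO. From Mrps36 to Mrpl47 every cold library lies above every TN library, whereas Mrpl24 changes little (40.1 to 49.8 CPM) and the Mrpl52 groups overlap in WT.

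The rest of the mitochondrial translation machinery was also called higher in part. Of 7 mitoribosome genes under other symbols 4 were called higher in cold WT (median 0.59), including Ptcd3 (1.16), an RNA-binding protein of the small subunit, Ict1 (0.75), a peptidyl-tRNA hydrolase of the large subunit, and Aurkaip1 (0.69). Of 10 translation factors 8 were called (median 0.62), led by Gfm1 (1.61), elongation factor G, Tufm (1.02), elongation factor Tu, and Tsfm (0.76), its exchange factor. Gfm1 stood at 50.4, 40.3 and 53.3 CPM in TN WT and at 132, 135 and 171 CPM in cold WT, so its groups lie far apart.

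Of 21 genes for ribosomal RNA modification and mitoribosome assembly 11 were called higher (median 0.43), led by the ribosomal RNA methyltransferase Rnmtl1 (1.22), Mpv17l2 (0.99) and Ftsj2 (0.78), another methyltransferase. Of 17 mitochondrial aminoacyl-tRNA synthetases, which charge tRNAs, 10 were called (median 0.40), led by Fars2 (1.09), Iars2 (1.04) and Yars2 (0.74). All 4 genes of mRNA handling and membrane insertion were called, with Taco1 (1.31), a translational activator, Lrpprc (1.14), which stabilises mitochondrial mRNAs, and Oxa1l (0.85), which inserts nascent proteins into the inner membrane. None of the genes in these 5 lists was called lower in WT. In HIF2α AKO the counts called higher were 5, 9, 12, 11 and 4 in the same order.

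Other gene families set the scale. Nuclear-encoded subunits of respiratory complex I, of which some partners are made on the mitoribosome, were called higher in cold WT for 35 of 35 genes tested, of 36 in the table (median 1.38, against 0.75 for the ribosomal proteins). Cytosolic ribosomal proteins, which translate the nuclear mRNAs, were called higher for 0 of 76 tested, of 78 in the table, and lower for 1 (median -0.20). Of all 15306 genes tested, 2389 were called higher and 870 lower. At an unadjusted p under 0.05 (edgeR), 1 cytosolic ribosomal protein gene was higher and 7 were lower, beside 3460 and 2500 of all genes tested. Neither difference between families was tested.

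In 22 members a protein-coding gene starts on the opposite strand within 1000 bases upstream of the member's start or just past it. Pairs that overlap further at their starts, Mrpl46 and Mrps11 among them, were not counted. Of these members 20 were called higher in cold WT (median 0.73), and of their partners 5 of 22 (22.7%, median 0.10, beside 15.6% of all genes), namely Ndufs6, Ptcd2, Apba3, Psma2 and Sars2. Mrpl36 rose by 0.41 on the log2 scale and its partner Ndufs6, a complex I subunit that overlaps it, by 1.38. For Mrpl54 and Apba3 the values were 0.45 and 0.52.

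Overlapping genes and copies touch many members. An overlapping gene was annotated for 41 members, on the opposite strand for 35, and a near-identical pseudogene for 21, and the strand setting of the counting is not given in the sources used here. Among the 21 members with neither, 18 were called higher in WT (median 0.82) and 19 in HIF2α AKO (median 0.84).

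Marker lists of the cell types in the depot are given beside the rise. The 8 thermogenic adipocyte markers, Ucp1 among them, summed to 28.4 to 90.6 CPM in TN libraries. In cold they summed to 3350 to 4864 CPM in WT and to 5622 to 8582 CPM in HIF2α AKO. Adipocyte markers summed to 11460 to 27890 CPM at TN and 22770 to 42860 CPM in cold, and the 8 lymphocyte markers to 1023 to 1706 and 588 to 1033 CPM. Of the 8 adipocyte markers 3 were called higher in WT and 2 in HIF2α AKO, beside 15.6% of all genes in each. In HIF2α AKO 2 of the 8 estimates were negative. The 10 macrophage markers summed to 1614 to 2842 CPM in TN WT and 1346 to 2685 CPM in cold WT, with 0 called. In HIF2α AKO they summed to 2635 to 2818 CPM at TN and 1523 to 1737 CPM in cold, with 10 of 10 estimates negative. Of these 2 were called lower, as were 2 lymphocyte markers, beside 1757 of all 15306 genes. In WT 1 lymphocyte marker was called lower, beside 870 of all genes. Endothelial markers (6) ran from 807 to 986 CPM at TN and 984 to 1090 CPM in cold. Cell cycle genes (6) ran from 86.9 to 330 and 66.4 to 133 CPM. In WT 0 of either list were called. In HIF2α AKO 1 endothelial marker was called higher, beside 15.6% of all genes, and 0 cell cycle genes were called. The 12 skeletal muscle markers summed to 36.8 to 95.4 CPM in TN WT and 12.2 to 14.2 CPM in cold WT, with 12 of 12 estimates negative and 0 called. The part of these lists in the rise was not tested. Without the 3 libraries holding muscle or epithelial transcripts, 72 members were called higher in WT (median 0.87) and 64 in HIF2α AKO (median 0.80). Of all genes, 2552 in WT and 1466 in HIF2α AKO were then called higher, in place of 2389 and 2381.

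Within each group the members rose and fell together from library to library. TN WT replicate 3 was the highest of its group for 75 of the 76 genes and replicate 2 the lowest for 73. In TN HIF2α AKO, replicate 2 was highest for 69 and replicate 1 lowest for 64. In cold, replicate 3 was highest for 69 in WT and replicate 1 for 75 in HIF2α AKO. The same 4 libraries held the highest adipocyte marker sums of their groups (22660, 27890, 42860 and 33260 CPM) and the lowest lymphocyte marker sums (1072, 1023, 588 and 591 CPM). Of these 4, TN WT replicate 3 is the library with epithelial transcripts, and TN HIF2α AKO replicate 2 and cold HIF2α AKO replicate 1 are the libraries with muscle transcripts. The part of cell makeup in this spread was not tested. Without TN WT replicate 2, 46 members in place of 68 were called higher in WT, and 1149 in place of 2389 of all genes. Without TN WT replicate 3 these counts were 72 and 2669.

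Between genotypes at TN no difference in the family was detected. By edgeR 0 of 76 members passed the adjusted p, beside 0.00653% of all genes, and 0 had an unadjusted p under 0.05, beside 2.91%; DESeq2 and limma voom called 0 as well. The median log2 fold change of HIF2α AKO against WT was 0.045, beside 0.014 over all genes. Of the members 58 were positive, beside 8306 of all 15306 genes, and the estimates ran from -0.10 to 0.18. Mrps24 (0.11), Mrpl49 (0.14) and Mrpl43 (0.11) had the smallest edgeR p-values on the higher side and Mrpl52, Mrpl19 and Mrps9 on the lower side, at -0.08, -0.06 and -0.06. The median turned to -0.05 without TN HIF2α AKO replicate 2 and reached 0.17 without TN WT replicate 3.

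In cold, the libraries labelled HIF2α AKO had slightly higher estimates for most members, and none passed the test. The median was 0.15 (1.11-fold) with 72 of 76 positive, beside a median of -0.02 and 6706 of 15306 positive over all genes. By edgeR 0 members passed the adjusted p (0.00653% of all genes) and 2 had an unadjusted p under 0.05 (2.95% of all genes), while DESeq2 and limma voom called 0. Those 2 were Mrps36, at 23.2, 32.0 and 29.3 CPM in cold WT against 55.1, 34.5 and 34.9 CPM in cold HIF2α AKO (0.56, SE 0.21, edgeR adjusted p = 0.9999), and Mrpl36, at 27.5, 28.8 and 29.8 against 35.2, 32.1 and 32.7 CPM (0.22, SE 0.09). With Mrpl55 they were the 3 members whose groups did not overlap, beside 3.8% of all genes that were higher in this way.

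Mrpl47 followed (0.38, SE 0.17), and Mrpl24, Mrpl40 and Mrpl49 had the smallest p-values on the lower side, each with an estimate between -0.03 and -0.02. Under the looser thresholds of the study (unadjusted p under 0.15 and a log2 fold change over 0.2), applied here to the edgeR values, 10 members counted as higher, beside 4.74% of all genes. They were Mrps36, Mrpl47, Mrpl35, Mrps23, Mrps5, Mrpl55, Mrps16, Mrpl15, Mrpl36 and Mrpl45.

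These genotype values depended on cold HIF2α AKO replicate 1, the library with 1299 CPM of muscle transcripts. Without it the median was 0.046 in place of 0.15, 59 members were positive in place of 72, and under the study's thresholds 1 member, Mrps36 (0.30), remained of the 10, beside 2.76% of all genes. Mrps36 is the gene counted with neither subunit, and its count is uncertain because of its near-identical pseudogenes. Cold HIF2α AKO replicate 1 also held the highest adipocyte marker sum of its group (33260 CPM). Thermogenic adipocyte markers summed to 3350 to 4864 CPM in cold WT and 5622 to 8582 CPM in cold HIF2α AKO. For HIF2α AKO against WT in cold, 8 of 8 had positive estimates (median 0.68) and 0 passed the adjusted p. In 4 of the 8 the groups did not overlap, beside 3.8% of all genes that were higher in this way. Without cold WT replicate 3, from a group with 12.2 to 14.2 CPM of muscle transcripts, the median was 0.25 and 75 members were positive. The part of muscle transcripts or of other cell makeup in the difference was not tested.

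**Figure D5:**
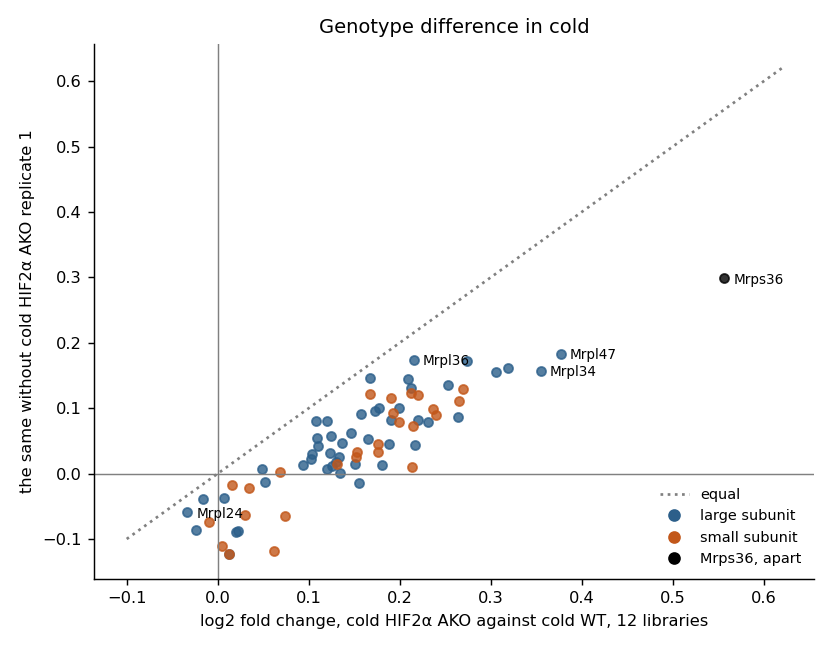
Log2 fold change of cold HIF2α AKO against cold WT for the 76 genes, fitted with 12 libraries (x axis) and without cold HIF2α AKO replicate 1 (y axis). All 76 points lie below the dotted line of equal values, with medians of 0.15 and 0.046.

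The rise upon cold was larger in HIF2α AKO than in WT for 63 of 76 members, beside 6735 of all 15306 genes. The median difference was 0.096 on the log2 scale, beside -0.027 over all genes. In edgeR (0% of all genes), DESeq2 or limma voom, 0 interactions of genotype and temperature passed the adjusted p. None had an unadjusted p under 0.05, beside 2.14% of all genes. The smallest p-values were those of Mrpl19 (0.24, SE 0.13), Mrpl36 (0.21) and Mrpl52 (0.20). Without cold HIF2α AKO replicate 1 the median difference was -0.0031 and 35 members were positive, and without the 3 libraries with muscle or epithelial transcripts it was -0.038.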

How the data were processed

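RNA of iWAT was sequenced in 12 libraries, 3 per group, grouped by their labels. The authors trimmed reads with Trim Galore (0.4.4), aligned them to GRCm38/mm10 with STAR (2.6.1d) and deposited whole read counts per gene from HTSeq (0.13.5), without normalization; annotation and strand setting are not given in the sources used here. The 5 tallies of reads outside genes (21.9 to 27.0% of reads listed) were left out. Replicate libraries differed by more than counting noise (chi-square per degree of freedom 30.6 to 135).

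Counts were fitted over all 12 libraries with edgeR 4.0.16 in R 4.3.3 (TMM, filterByExpr with a minimum count of 10 and total of 15, glmQLFit and glmQLFTest, Benjamini-Hochberg over 15306 genes, adjusted p under 0.05), one mean per group. The SE was the log2 fold change over the square root of F. RPKM used GENCODE M21 exon unions. Alternatives were DESeq2 1.42.0, limma 3.58.1 voom with quality weights for the libraries, RLE or no scaling, and no filter. Others were a replicate block, 2 groups alone and leaving out libraries. Near-identical pseudogenes matched at 95% identity or more over at least 150 bases. Members and lists were chosen with earlier results of these data known. Named were the largest rises among called members without overlap (up to 10 per genotype) and the smallest p-values between genotypes (3 each way). For the interaction the 3 smallest p-values in either direction were taken. Also named were the 3 highest and lowest levels, stalk genes, S18 paralogues, Mrps36 and members called in neither genotype. Each pathway list gave up to 3 rises. At this depth each member had at least 187 counts per library.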

Additional observations from a re-analysis of the deposited data

How the results depend on the processing

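The median of the 76 genes stayed positive for both cold rises under every alternative run, and the number of the 76 called higher for cold against TN stayed within 1.5 times of 68 and 69. Members called higher in WT numbered 51 to 73 and in HIF2α AKO 64 to 74 across tools, scalings, filters and library sets, with 46 to 72 and 55 to 70 when leaving out 1 library at a time; 0 were called lower each time. Scaled by library size alone, the medians were 0.45 in WT and 0.56 in HIF2α AKO with all genes at -0.33 and -0.32, so relative to all genes they were 0.78 and 0.88. That scaling made Mrpl52 (-0.25 and -0.027) and Mrpl24 (-0.090 and -0.13) negative in both genotypes and Mrpl23 (-0.070) in WT, and it split all genes called in WT into 1429 higher and 4459 lower, in place of 2389 and 870. Leaving out 1 library, the median ran from 0.64 to 0.87 in WT, 0.72 to 0.89 in HIF2α AKO, -0.05 to 0.17 between genotypes at TN, 0.05 to 0.25 between genotypes in cold and -0.0031 to 0.22 for the interaction, with 0 members called by genotype or interaction throughout. Under the study's thresholds 10 members were higher in cold HIF2α AKO than in cold WT, and 1, Mrps36, without cold HIF2α AKO replicate 1.

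Leaving out 1 library, the TN genotype estimates ran from -0.20 to 0.26 for Mrpl42, -0.20 to 0.12 for Mrpl55, -0.15 to 0.16 for Mrpl40 and -0.13 to 0.18 for Mrpl11, with the highest value, of the opposite sign to that with 12 libraries, without TN WT replicate 3. The interaction estimates of Mrpl47 (-0.032) and Mrpl43 (-0.080) turned negative without the 3 libraries with muscle or epithelial transcripts, an alternative chosen after seeing the data, as was leaving a library out under the study's thresholds, and that of Mrpl43 (-0.0769) with limma voom. Replicate numbers share only a number: 5 of 18 pairs had deviations correlated above 0.1 (-0.43 to 0.39). With the replicate block 64 members were called in WT and 68 in HIF2α AKO. The causes were not tested.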
